A study of Saccharomyces cerevisiae with 10 samples.

Results

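The cytosolic ribosomal proteins of budding yeast were followed in cells that express αENaC, the alpha subunit of the mammalian epithelial sodium channel, and in cells with a vector control. The members were the probe sets whose annotated gene symbol is RPL (large subunit) or RPS (small subunit) with a number and at most the letter A or B. The rule found 142 probe sets for 122 genes among 5498 Saccharomyces cerevisiae probe sets with 1 gene. Of these, 77 probe sets (70 genes) belong to the large subunit and 65 (52 genes) to the small subunit.

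Total RNA was hybridised to 10 1-colour expression arrays, labelled as 3 αENaC and 7 vector control replicates. The αENaC cells carried αENaC with an HA tag on a prs426GPD plasmid, named for the strong constitutive GPD promoter. The vector control cells carried the vector pRSGPD426. All cultures grew at 26 °C in selective medium to mid log phase, and the sources used here name no strain. By the numbers in their titles the arrays fell into 3 sets, which the labels do not call batches: set 1 (numbers 1 to 4) held αENaC 1 and 2 with controls 1 and 2, set 2 (numbers 5 and 6) held αENaC 3 with control 3, and set 3 (numbers 11 to 14) held controls 4 to 7. A heterologous, plasmid-borne protein in yeast is a model of synthesis and quality control in a cell that has no such channel of its own.

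The cytosolic ribosome reads mRNA on its small subunit and joins amino acids on its large subunit. Most of its proteins in S. cerevisiae come from a pair of paralogs, A and B, kept since the whole-genome duplication, and both proteins of a pair are nearly alike. The genes are among the most strongly transcribed in growing yeast and are switched together: Rap1, Fhl1, Ifh1 and Sfp1 drive them under TOR and protein kinase A signals, and their transcripts are known to fall in the environmental stress response. Many carry introns, which are rare in yeast, and some members control their own splicing or mRNA decay.

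Some paralogs in the current RefSeq gene table of the R64 assembly, among them RPL41B, RPL7B and RPS4A, had no probe set under their own symbol, and their partner had a probe set whose ID marks probes shared between sequences. In all, 29 of the 142 probe sets carried such an ID, and 113 did not. Values of the 29 cannot be divided between paralogs, and 20 genes had both kinds of probe set.

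All 142 members lay above the background level. Their median brightness, averaged over arrays, was at percentile 98.6 of all 10715 probe sets, and the lowest was RPL15B at percentile 78.7. Ribosomal protein mRNAs are abundant in growing cells, and no probe set went against the label. Below, a signal is the log2 of a probe set's value in units of its array's mean plus 0.03, quantile normalised between arrays, and a difference is αENaC minus vector control on that log2 scale. Such a signal is relative to the rest of the same array, so that a change in total RNA per cell is not seen. In RNA of whole cultures, a lower level in every cell cannot be told apart from a lower level in some of the cells.

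Pairs of arrays of the same group in set 1 were nearly identical: αENaC 1 and 2 correlated at r = 0.9988 and controls 1 and 2 at r = 0.9977 over the S. cerevisiae probe sets. Controls 5, 6 and 7 correlated with each other at 0.997 to 0.9982, and control 4 with them at 0.9796 to 0.985. αENaC 3 correlated best with control 3 (0.9807), not with the other αENaC arrays (0.9746 and 0.9769). The series' text speaks of biological replicates, but nothing in the labels shows that such near-identical arrays come from separate cultures. The 10 arrays therefore hold less independent information than their number, and p-values within set 1 rest on the spread between such near-identical pairs.

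No ribosomal protein transcript was shown to change between αENaC and vector control cultures. None of the 142 members passed an adjusted p of 0.05 (limma, Benjamini-Hochberg over 5498 probe sets), and the lowest adjusted p of a member was 0.261. Over all 5498 probe sets, 95 passed (1.73%), of which 75 were higher and 20 lower; none passed in the fit with the replicate number as a block. At an unadjusted p under 0.05 there were 2 members, RPS25A and RPL4B, against 998 of 5498 (18.2%) over all probe sets. The αENaC and control values overlapped for all 142 members, while 8.58% of all probe sets had groups that did not overlap.

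The differences of the members were small and mostly negative. The large-subunit median was −0.05, with 62 of 77 negative, and the small-subunit median was −0.06, with 53 of 65 negative. Over all S. cerevisiae probe sets the median was 0.02, and 46.2% were negative. Single members ran from −0.38 (RPS14B) to 0.08 (RPL3). The half-width of a member's 95% confidence interval was 0.164 at the median and 0.119 to 0.439 in range, so a change smaller than that was not detectable with 3 and 7 arrays. These intervals are unadjusted, and the adjusted test needed a larger change. The intervals of RPS25A and RPL4B lay wholly on the negative side, and neither member passed. Between αENaC arrays the median SD of a member was 0.09 for the large and 0.10 for the small subunit, against 0.12 over all S. cerevisiae probe sets, and between control arrays it was 0.06 and 0.07, against 0.19. Between control arrays the members' SD also stayed below that of all probe sets without normalisation between arrays (0.21 and 0.22, against 0.25). The same held with cyclic loess (0.085 and 0.091, against 0.191). The order turned with each array centred on its median (0.34 and 0.34, against 0.23).

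The negative median came from 2 of the 3 αENaC arrays. Relative to the control mean, the median large-subunit member stood at −0.08, −0.12 and 0.05 on αENaC 1, 2 and 3. The control arrays gave −0.01, −0.01, 0.05, −0.09, 0.03, 0.03 and 0.02. For the small subunit the αENaC values were −0.11, −0.14 and 0.04, and the control values were −0.03, −0.03, 0.04, −0.07, 0.03, 0.02 and 0.03. Both subunits thus moved together on every array. αENaC 1 and 2 were the lowest for the small subunit, while for the large subunit control 4 lay between them.

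**Figure D1:**
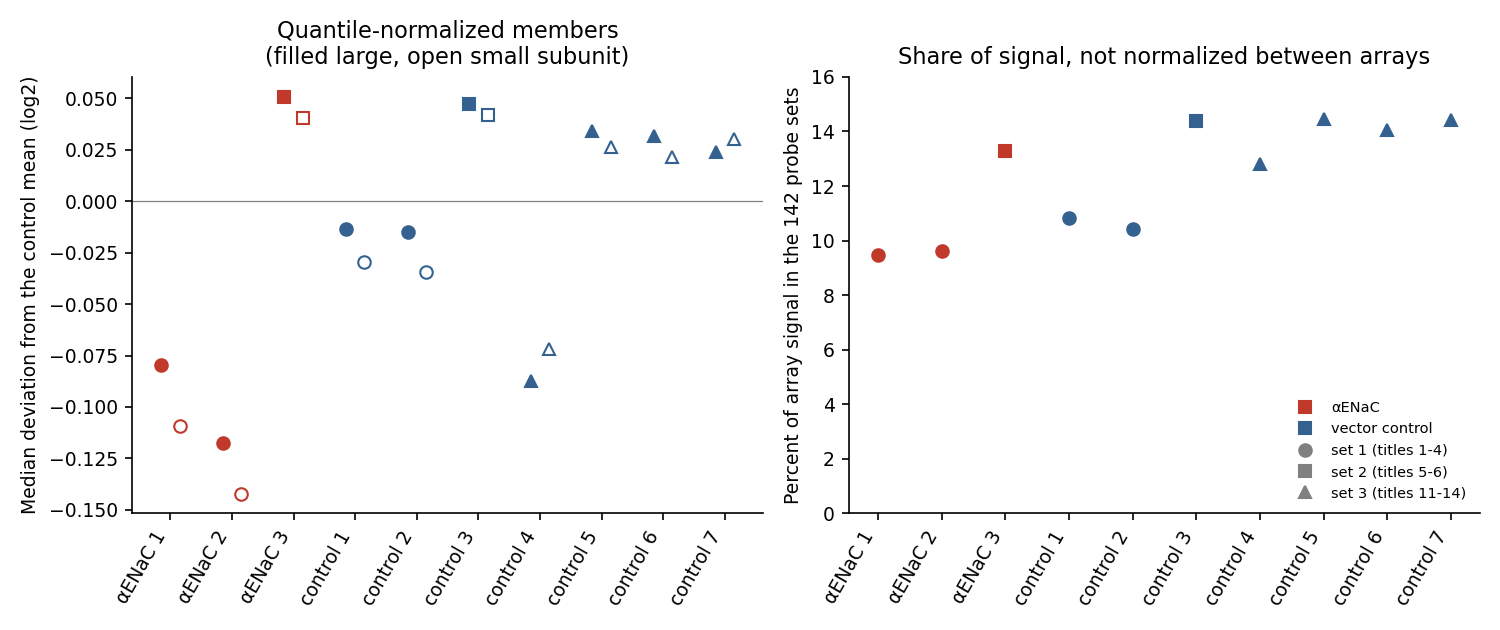
Left, the median deviation of the large-subunit (filled) and small-subunit (open) probe sets from the control mean on each array, in log2 units; right, the percentage of each array's signal in the 142 probe sets, before normalisation between arrays. Points are single arrays, red αENaC and blue vector control, with the symbol giving the set; αENaC 3 sits with control 3 at 0.05 and 0.05 for the large subunit, and control 4 lies at −0.09.

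The share of array signal in the members gives the same arrays without normalisation between them. The 142 probe sets held 9.47%, 9.61% and 13.3% of the signal on αENaC 1, 2 and 3, a mean of 10.8 ± 2.16% (SD, n = 3). On controls 1 to 7 they held 10.8%, 10.4%, 14.4%, 12.8%, 14.5%, 14.1% and 14.4%, a mean of 13.1 ± 1.76% (SD, n = 7). Within set 1, and within set 2, the αENaC share was below the control share, but the step between set 1 and the other sets was larger than either gap. The brightness of the top of the array moved with it: the 99th percentile was 8.12, 8.46 and 10.6 array means on αENaC 1 to 3, and 9.03, 8.67, 11.5, 11.4, 11.7, 11.5 and 11.8 on controls 1 to 7. The part of this array-wide difference in the members' signal was not tested.

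How negative the members were depended on the scaling. Quantile normalisation gives each rank of every array the same value, so a member near the top can differ only by its rank. Without normalisation between arrays the median difference was −0.28 for each subunit, with 77 of 77 large-subunit and 64 of 65 small-subunit members negative, beside a shift of 0.16 in the median of all S. cerevisiae probe sets. With each array centred on its median it was −0.44 for each subunit, with all 142 members negative, beside −0.002 over all probe sets. Cyclic loess gave −0.12 and −0.13. The direction of both medians was the same under these scalings, and no member passed the test under any of them. The control arrays alone moved by more with median centring and without normalisation. Controls of set 3 minus controls of set 1 gave medians of 0.62 (large) and 0.64 (small) with median centring, and 0.39 and 0.40 without normalisation. With cyclic loess these medians were 0.11 and 0.14.

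Whether the members differed by more in set 1 or in set 2 depended on the scaling. Quantile normalised, in set 1 (2 and 2 arrays) the median difference was −0.07 for the large subunit, with 72 of 77 negative, and −0.08 for the small subunit, with 58 of 65 negative, against −0.02 and 53.8% negative over all probe sets. In set 2 (1 array per group) both subunit medians were 0, with 36 of 77 and 31 of 65 negative. Without normalisation between arrays both sets gave negative medians: −0.15 for each subunit in set 1, and −0.11 for each subunit in set 2. With median centring they were −0.22 and −0.23 in set 1, and −0.23 and −0.24 in set 2. Set 2 has no replicate check.

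Tested on set 1 alone, 48 members were called lower and 0 higher, namely 27 of 77 large-subunit and 21 of 65 small-subunit probe sets. That is 33.8% of the members, and over all probe sets 31.8% were called lower and 28.4% higher. The share of members called lower was thus near the background. With array weights, whose estimate did not converge, 102 members were called lower and 5 higher, where 32.0% and 43.0% of all probe sets were. Whether the difference itself differed between set 1 and set 2 was tested by an interaction term over those 6 arrays, in a fit chosen after the data were seen. It passed for 14 of 142 members (9.86%), 7 in each subunit, all more negative in set 1, against 46.2% of all probe sets. That test takes its spread from the near-identical pairs of set 1, with 2 residual degrees of freedom, and set 2 has 1 array per group, so it does not show a difference between separate cultures.

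**Figure D2:**
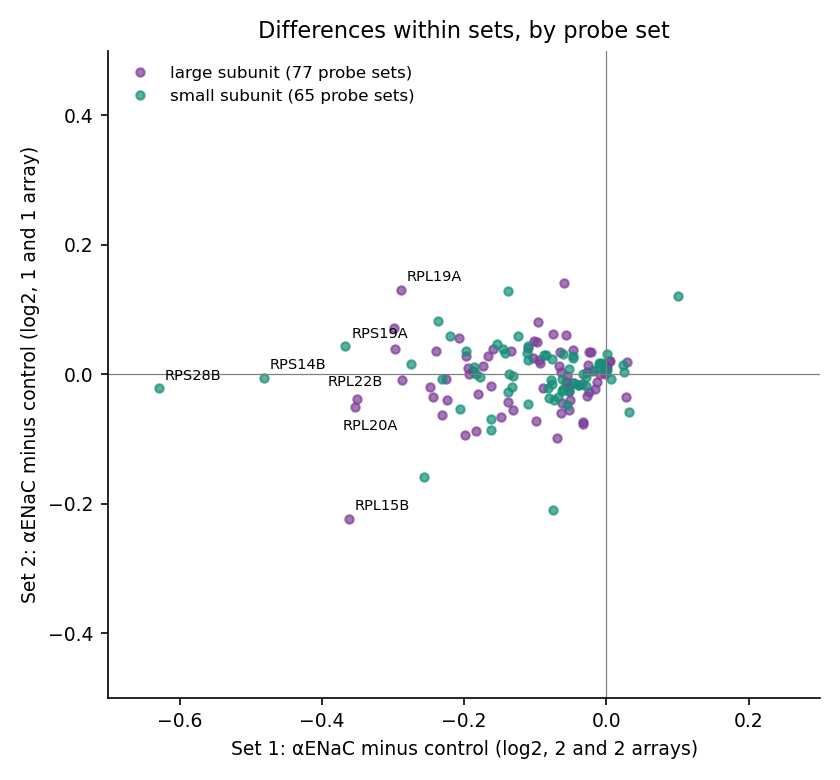
Difference αENaC minus control of each of the 142 probe sets in set 1 (x axis, log2) and in set 2 (y axis, log2), purple for the large and green for the small subunit. Most points lie left of 0 on the x axis, as 72 of 77 and 58 of 65 are negative in set 1, and around 0 on the y axis; RPS28B and RPS14B lie farthest left.

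How the difference varied with brightness turned with the scaling. Quantile normalised, the 50 probe sets above percentile 99 had a median difference of −0.02, the 47 at percentiles 98 to 99 had −0.05, and the 45 below percentile 98 had −0.15, with 43 of 45 negative. The 45 dimmest had a median of −0.20 within set 1 and of 0.01 within set 2. In the same order of brightness the medians were −0.11, −0.13 and −0.15 with cyclic loess, but −0.47, −0.43 and −0.40 with median centring and −0.31, −0.27 and −0.24 without normalisation, where the brightest members were the lowest. The 17 members with no A or B in the symbol had a median of −0.03, against −0.07 for the 125 named A or B, and this order also turned with median centring (−0.46 against −0.44). These bins describe probe signals, which depend on the probes as well as on the transcripts, and scaling bears on the brightest most.

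**Figure D3:**
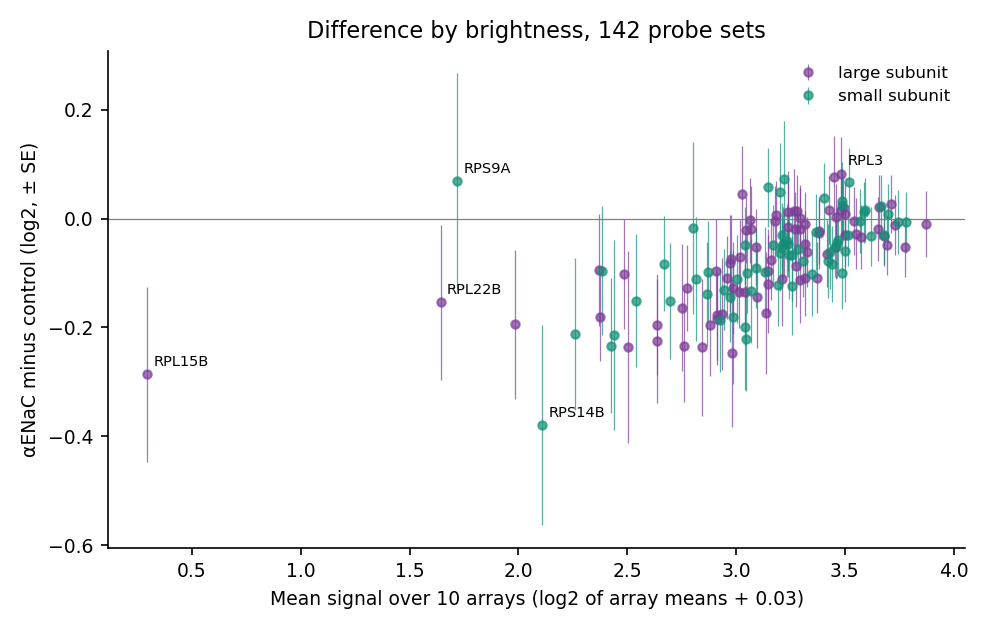
Difference αENaC minus control (y axis, log2, with its standard error) against the mean signal over the 10 arrays (x axis, log2) for the 142 probe sets. In these quantile-normalised values the brightest members lie near 0, and the dimmer ones, such as RPS14B at −0.38 and RPL15B at −0.29, lie mostly below it; the order turns with median centring.

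RPL3, RPL10 and RPL28, of the peptidyl transferase region and the interface, had quantile-normalised differences close to 0, and negative ones under the other scalings. They do not stand for the whole region, as RPL2A, named below, had −0.24 on its own probe set and −0.01 on the shared one. RPL3 helps shape the peptidyl transferase centre, and its signal was 3.56, 3.56 and 3.50 on αENaC 1 to 3, against a lowest, median and highest of 3.33, 3.43 and 3.54 on the controls. Its difference of 0.08 ± 0.07 (SE) was the largest positive one of the subunit and did not pass (adjusted p = 0.547, limma). The control arrays of set 3 lay below the other arrays for RPL3, and within set 1 its difference was 0.03 and within set 2 −0.04. It was −0.36 with median centring, −0.21 without normalisation and −0.01 with cyclic loess. RPL10, a protein that joins the subunit late in the cytoplasm, had 3.75, 3.74 and 3.71 on the αENaC arrays, against 3.69, 3.70 and 3.72 on the controls, and a difference of 0.03 (−0.44 with median centring). RPL28, the site of classic cycloheximide resistance mutations, had −0.03. Each member given here with a positive difference had a negative one with median centring, without normalisation and with cyclic loess, except RPS9A, which was negative only with median centring.

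RPL5 and RPL11 bring the 5S RNA into the ribosome. RPL5 had 3.65, 3.66 and 3.70 on the αENaC arrays, against 3.55, 3.66 and 3.70 on the controls, a difference of 0.02. RPL11A differed by −0.13 and RPL11B by −0.12 (adjusted p = 0.412 and 0.504), but the RPL11B probe set with shared probes differed by 0.01. αENaC 1 and 2 were the low arrays for both RPL11 genes, at 2.64 and 2.54 for RPL11A, against 2.70 for the lowest control. αENaC 3 was at 2.86, inside the control range.

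Around the polypeptide exit tunnel, where new chains meet chaperones and the signal recognition particle, 13 of 14 genes were measured and none was called. Their median difference was −0.08, with 12 of 13 negative. RPL25, the docking site of the signal recognition particle and nascent-chain factors, differed by −0.03 ± 0.06. RPL39, a small protein of the tunnel wall, had 2.77, 2.63 and 3.04 on the αENaC arrays, against 2.81, 3.01 and 3.10 on the controls, and differed by −0.18 ± 0.10 (adjusted p = 0.390, limma). Its control arrays of set 3 were 0.23 above those of set 1, more than the difference between αENaC and control.

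RPL4B, which also lines the tunnel, came nearest to a call in the large subunit. Its signal was 2.46, 2.50 and 2.84 on the αENaC arrays, against 2.69, 2.88 and 2.98 on the controls. The 2 arrays of set 1 lay below every control, and αENaC 3 lay inside the control range. The difference was −0.23 ± 0.10 (95% interval −0.46 to −0.003, adjusted p = 0.269, limma), and it was −0.24 in set 1 and −0.04 in set 2. Its paralog RPL4A, measured only by shared probes, differed by −0.05.

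The other large-subunit members with the smallest unadjusted p among the negative ones were RPL9B, RPL36A and RPL40B. RPL9B, a protein near the factor-binding side, had 2.18, 2.13 and 2.43 on the αENaC arrays, against 2.33, 2.43 and 2.55 on the controls, and differed by −0.18 ± 0.08. RPL36A had 2.75, 2.60 and 3.00, against 2.86, 2.98 and 3.01, and also differed by −0.18 ± 0.08. As for RPL4B, αENaC 1 and 2 were low and αENaC 3 was not. RPL24A, a bridge to the small subunit, had a difference of 0.08 ± 0.08 (adjusted p = 0.632, limma). Its p was the smallest after that of RPL3 among the positive differences of the subunit, though not small. The difference was −0.05 in set 1 and 0.04 in set 2.

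The ubiquitin fusions RPL40A, RPL40B and RPS31 are made as a ribosomal protein with ubiquitin at its front, which is cut off and adds to the cell's ubiquitin. RPL40A differed by −0.11 ± 0.07, RPL40B by −0.18 ± 0.08 (adjusted p = 0.291) and RPS31 by 0.01 ± 0.06. RPL40B had 2.73, 2.67 and 2.98 on the αENaC arrays, against 2.84, 2.98 and 3.06 on the controls. RPS31 had 3.59, 3.58 and 3.61, against 3.53, 3.59 and 3.62. None of the 3 was called.

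RPL30 represses the splicing of its own transcript, and its signal was 3.66, 3.62 and 3.69 on the αENaC arrays, against 3.66, 3.69 and 3.71 on the controls. RPL22B, whose intron is held back by the Rpl22 protein, had 1.38, 1.37 and 1.86, against 1.28, 1.73 and 1.90. Its lowest array was control 4. RPL41A, the gene of a very short peptide, had only shared probes and differed by −0.24 ± 0.18, while its control arrays differed by 0.39 between sets 3 and 1. RPL15B had the lowest difference of the large subunit, −0.29 ± 0.16, and RPL15A had −0.25 ± 0.14. RPL15A, RPL15B and RPL22B are named after their values were seen, as are RPL2A, RPL18B, RPL19A, RPL20A, RPS9A, RPS10A and RPS28B below.

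In the small subunit, RPS14B had the lowest difference of all members. Its signal was 1.54, 1.59 and 2.41 on αENaC 1 to 3, against 2.05, 2.04, 2.41, 2.01, 2.37, 2.31 and 2.37 on controls 1 to 7. The 2 αENaC arrays of set 1 were below every control, and αENaC 3 was level with the control of its own set. The difference was −0.38 ± 0.18 (a fold of 0.77, 95% interval −0.79 to 0.03 on the log2 scale, adjusted p = 0.307, limma), −0.48 in set 1 and −0.005 in set 2. RPS14B is the minor gene for Rps14, a platform protein that binds the RPS14B pre-mRNA and represses its splicing. RPS14A, the major gene, had 3.34, 3.35 and 3.48, against a lowest, median and highest of 3.35, 3.49 and 3.51, and differed by −0.06.

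RPS14B was 1 of 2 members called lower when αENaC 3 was left out, at −0.66 (adjusted p = 0.0333, limma). The other was RPL31B, at −0.33 (adjusted p = 0.0392). Those 2 calls are 1.41% of the members, and 1.56% of all probe sets were called lower in that fit. Leaving out any other array gave no member call.

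RPS25A, a protein of the head needed for some viral internal ribosome entry sites, had the lowest p of all members. Its signal was 2.79, 2.76 and 3.13 on the αENaC arrays, against 2.98, 3.15 and 3.21 on the controls, a difference of −0.22 ± 0.10 (95% interval −0.43 to −0.01, adjusted p = 0.261, limma). Within set 1 it was −0.21 and within set 2 −0.05. The control arrays of set 3 stood 0.18 above those of set 1. RPS19A, a head protein needed to mature the small-subunit RNA, had 2.21, 1.96 and 2.61, against 2.33, 2.50 and 2.62, and differed by −0.23 ± 0.12. RPS1B, near the mRNA exit, had 2.70, 2.63 and 3.06, against 2.89, 3.00 and 3.06, and differed by −0.19 ± 0.10.

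The mRNA entry protein RPS3 had 3.69, 3.68 and 3.68 on the αENaC arrays, against 3.58, 3.67 and 3.71 on the controls, a difference of 0.02 ± 0.06. RPS21B at 0.07 ± 0.06 and RPS23A, next to the decoding centre, at 0.06 ± 0.07 had the smallest p among the positive small-subunit differences. The RPS23A value is that of its own probe set, and the shared one had the opposite sign, at −0.06. Over the head of the small subunit, 21 genes were measured by 29 probe sets, with a median of −0.10 and 26 of 29 negative. None was called.

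RPS28B, whose mRNA is destroyed through Edc3 when its protein is in excess, differed most between the sets. Its signal was 2.09, 2.16 and 2.62 on the αENaC arrays, against 1.98, 2.52 and 2.81 on the controls. Within set 1 the difference was −0.63, and within set 2 it was −0.02. The control arrays alone differed by −0.41 between set 3 and set 1, and the αENaC arrays of set 1 lay inside the control range.

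**Figure D4:**
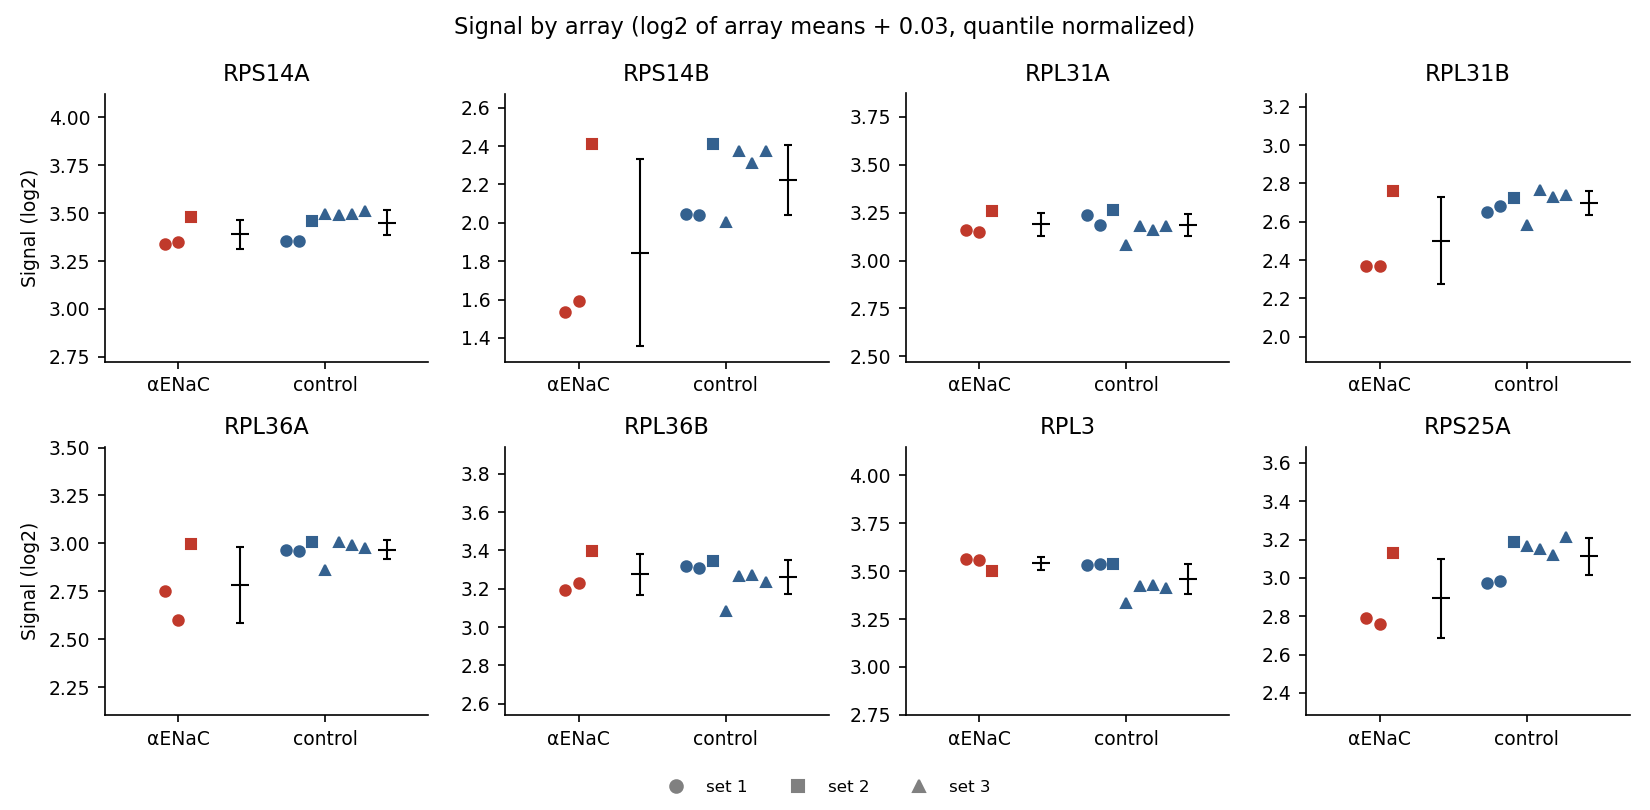
Signal of 8 probe sets on each array (y axis, log2 of array means plus 0.03, quantile normalised, each panel spanning the same number of log2 units), red for αENaC and blue for vector control, with the symbol giving the set and bars giving the mean and SD. RPS14B, RPL31B, RPL36A and RPS25A are low on αENaC 1 and 2 and not on αENaC 3, and the paralogs RPS14A and RPL36B and RPL3 lie within or close to the control range.

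Paralogs were compared by their differences, since levels of different probe sets cannot be set against each other. Of 57 A and B pairs in the gene table, 47 had a probe set without shared probes for each gene, 26 in the large and 21 in the small subunit. Quantile normalised, both differences were negative in 33 pairs and positive in 4, and the signs were opposite in 10. This split depended on the scaling. Both were negative in all 47 pairs with median centring, in 46 without normalisation and in 45 with cyclic loess, and the signs were opposite in 0, 1 and 2. The median distance between the differences of a pair was 0.08, and 3 pairs (RPS14, RPL26 and RPL31) lay at least 0.2 apart. With median centring and without normalisation these were 3 other pairs (RPS9, RPL15 and RPL22), and with cyclic loess RPS9 alone. In quantile-normalised values the gene with the lower difference also had the dimmer probe set in 36 of 47 pairs. Among them were RPS14, RPL26 and RPL31, and RPL36 and RPL24 below. Whether brightness bears on the distance within a pair was not tested. No test is given for the pairs.

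The pair farthest apart was RPS14, with the A gene 0.32 above the B gene, but they were 0.19 apart with cyclic loess and 0.02 apart with median centring or without normalisation. Its A minus B contrast, relative to the control mean, was 0.58, 0.53 and −0.16 on αENaC 1 to 3, and ran from −0.18 to 0.26 on the controls. RPL26, a tunnel-rim protein, had −0.02 for A and −0.23 for B, which was 0.20 apart against 0.10 with median centring. RPL31, also at the tunnel rim, had 0.01 for A and −0.19 for B, also 0.20 apart, against 0.06 with median centring. In both, αENaC 1 and 2 gave contrasts above all controls (0.32 and 0.34 for RPL26, 0.30 and 0.29 for RPL31), and αENaC 3 did not (−0.05 and 0.01).

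RPL36, next in size at −0.198, had −0.18 for A and 0.01 for B, and was −0.08 with median centring. Its contrast was −0.15, −0.34 and −0.11 on the αENaC arrays, against −0.06 to 0.07 on the controls. Quantile normalised, it and RPL24 were the pairs whose contrast did not overlap between the groups, and the other 45 overlapped. The difference of RPL24A was 0.09 above that of RPL24B, against 0.06 with median centring. Over all single probe sets 8.58% had groups that did not overlap, and no such share was computed for other pairs of probe sets. Within set 1, 8 pairs lay at least 0.2 apart, and within set 2, 3 did.

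**Figure D5:**
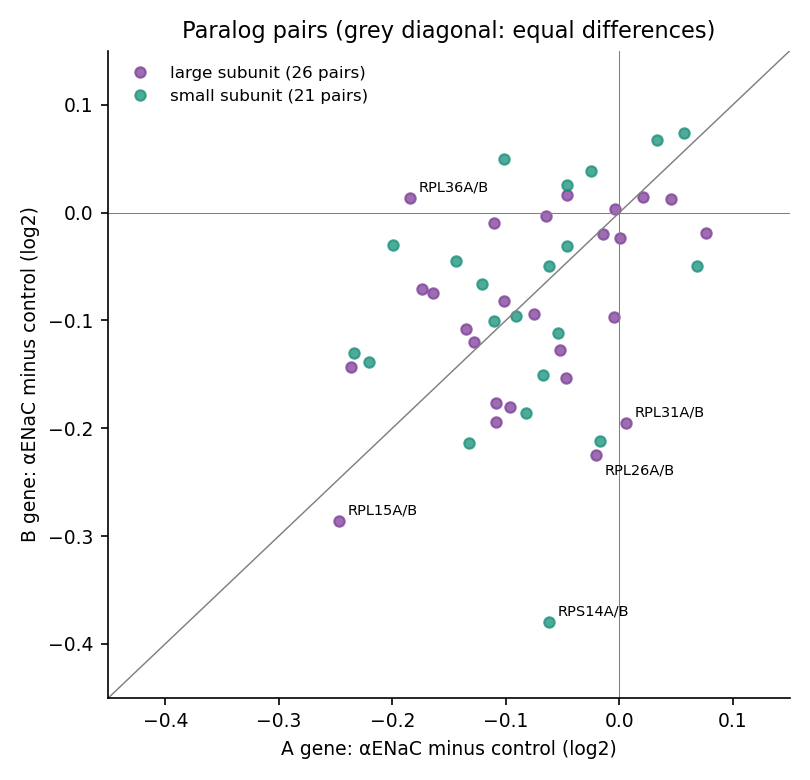
Difference αENaC minus control of the A gene (x axis, log2) and of the B gene (y axis, log2) for 47 pairs, purple for the large and green for the small subunit; the diagonal marks equal differences. Most points lie below 0 on both axes (33 of 47 pairs, but all 47 with median centring). RPS14 lies farthest from the diagonal at −0.06 and −0.38, a distance of these quantile-normalised values that is 0.02 with median centring.

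In genes with a probe set of their own and a shared one, both kinds could differ. RPL2A, close to the peptidyl transferase centre, had −0.24 on its own probe set and −0.01 on the shared one. RPL18B had −0.19 and −0.01. RPS10A had the reverse order, −0.02 on its own and −0.18 on the shared probe set. αENaC 1 was high for its own RPS10A probe set at 3.06, beside 2.34 on αENaC 2. The RPS23A shared probe set and RPL20A were high on control 2 only (3.82 and 3.59).

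The other genes of the ribosome and its regulation were taken from 5 lists, and none of their genes was called. The 7 stalk and other ribosome proteins outside the symbol rule had a median of −0.03. Among them RPP1A, an acidic protein of the stalk that recruits elongation factors, was at −0.15 ± 0.09 (adjusted p = 0.403), RPP1B was at −0.06 and RPP2B at −0.05. The 9 measured of 11 genes of the elongation factors had a median of 0.02, with HEF3, which lay below the background level, at 0.27, TEF4 at −0.07 and CAM1 at 0.09. CAM1 was negative within both sets (−0.13 and −0.06), and TEF4 too (−0.14 and −0.06).

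The 13 transcription regulators of ribosomal protein genes had a median of −0.03, and 3 had an unadjusted p under 0.05. STB3, a repressor that binds the ribosomal RNA processing element, had −0.13, −0.03 and −0.54 on the αENaC arrays, against −0.90, −0.65 and −0.47 on the controls. Its difference of 0.43 ± 0.12 did not pass (adjusted p = 0.1004, limma), and it was 0.55 in set 1 and 0.36 in set 2. STB3 passed when αENaC 3 was left out (0.58, adjusted p = 0.0265, limma), a fit that called 2.75% of all probe sets higher. DOT6, a repressor of ribosome biogenesis genes, had 1.04, 1.19 and 0.90, against 1.18, 1.62 and 1.89, a difference of −0.51 ± 0.16 (adjusted p = 0.131) that was −0.09 in set 1 and −0.57 in set 2. HMO1, which binds many ribosomal protein promoters, differed by −0.27 ± 0.12 (adjusted p = 0.246). It was −0.09 in set 1 and −0.17 in set 2. The activators, named apart from the rule, did not pass either. FHL1 differed by −0.44 ± 0.21, but by −0.12 in set 1 and −0.06 in set 2. IFH1 differed by −0.28 ± 0.17, with −0.32 in set 1 and 0.22 in set 2. SFP1 was at 0.07 ± 0.17, and negative within both sets (−0.15 and −0.17), and RAP1 was at −0.003 ± 0.07.

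The 10 dedicated chaperones that escort single ribosomal proteins split by set. Their median difference was 0.03 over all arrays, −0.41 within set 1 and 0.23 within set 2. TSR4, which escorts Rps2, was at 0.38 ± 0.20, YAR1, which escorts Rps3, at 0.38 ± 0.23, and SYO1, which carries Rpl5 and Rpl11 into the nucleus, at 0.30 ± 0.25. TSR4 was −0.19 in set 1 and 0.64 in set 2, and SYO1 was −0.23 and 0.53. YAR1 was negative within both sets (−0.01 and −0.10). The ribosome-bound chaperones and nascent-chain factors, 11 genes on 12 probe sets, had a median of 0.01, with NAT1 at 0.34, SSZ1 at 0.18 and ZUO1 at 0.10. Within sets 1 and 2 NAT1 was 0.06 and 0.22, SSZ1 was −0.01 and 0.03, and ZUO1 was −0.19 and 0.09.

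The control arrays alone showed how far members vary with no αENaC. Between controls of set 3 and of set 1 the quantile-normalised median difference was 0.01 for the large and 0.04 for the small subunit, and −0.04 over all S. cerevisiae probe sets. Single members ran from −0.41 (RPS28B) to 0.39 (RPL41A), a range wider than that of αENaC against control. RPS9A, a protein of the mRNA entry side, had 1.67, 1.59 and 2.04 on the αENaC arrays, against 0.96 on control 4, its lowest array, and 1.96 on the highest control.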

How the data were processed

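The deposited values are z scores within each array, as the values show: per the deposited table each array has its own mean and SD as reference. The sources used here do not give how the authors summarised probes before scoring. Here each array's score was set to 0 at its lowest value and divided by the array mean, 0.03 was added, log2 was taken, and the 10715 probe sets were quantile normalised. A lowest score taken as 0 is an assumption. Of these, 5498 S. cerevisiae probe sets with 1 gene (5449 genes) were fitted with limma 3.58.1 in R 4.3.3 (no covariates, 3 αENaC and 7 vector control arrays, 8 residual degrees of freedom, adjusted p under 0.05); 1746 had a gene name outside the yeast gene table, 3470 had no name and 1 had several. Symbols come from the platform annotation. The unit being a score, arrays give no depth, and their number limits precision. The fit was tested on simulated data with independent noise on every array. Such data lack the near-identical arrays and the sets of the real ones, so the simulation gives no error rate for these data.

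The members, lists and tests were chosen with earlier results of these data known. Named members were, per subunit, the 4 with the smallest p among the lower and the 2 among the higher, the 4 pairs farthest apart, a fixed choice, and up to 3 genes per list; other genes, such as FHL1, IFH1, SFP1, RAP1 and those named only for the test between sets, were named after their values were seen. Replicate numbers come from the labels. Deviations from the group means of same-numbered arrays correlated at 0.41, 0.22 and 0.17, which was read as pairing. Same-numbered arrays also share a set, and differently numbered ones were not compared. The correlations therefore cannot show pairing by replicate number. The alternatives were other scalings, pseudocounts, filters, variance models, blocks, array weights and left-out arrays.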

Additional observations from a re-analysis of the deposited data

Results flagged for a closer look

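For some genes named here, control 4 or control 2 stood apart from the other 6 controls by Dixon's test. Chance meets it in about 1 group in 20 when the values are independent. The controls come from 3 sets and include near-identical arrays, so that rate need not hold for them. Control 4 was low for RPL5 (3.55), RPS3 (3.58), RPL26A (2.94), RPL36A (2.86), RPL36B (3.08), RPL19A (2.27), RPL22B (1.28), RPS9A (0.96) and the elongation factor gene TEF4 (2.77). Control 2 was high for RPL20A (3.59) and for the shared probe set of RPS23A (3.82). Over all 142 members, 25 (17.6%) were met by this test, 23 with control 4 low (16.2%) and 2 with control 2 high. Over all 5498 S. cerevisiae probe sets 7.08% were met, 1.38% with control 4 low.

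An interaction term of set and group passed for 14 members (limma, 46.2% of all probe sets called). Its spread comes from the near-identical pairs of set 1 alone, so it does not show a difference between separate cultures. Set 2 minus set 1, it was 0.61 for RPS28B, 0.48 for RPS14B, 0.42 for RPL19A, 0.37 for RPL34A and 0.34 for RPL31B. It was 0.32 for RPS9A, 0.31 for RPL22B, 0.29 for RPS27A, 0.28 for RPS1B, RPL14B at 0.28 and RPS7B at 0.27. RPL11B stood at 0.26, RPS1A at 0.23 and RPL26B at 0.20. All 14 were more negative in set 1, and set 2 had 1 array per group.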

How the results depend on the processing

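No member was called in the settings tried, except with array weights (107, of which 102 lower; the weights did not converge), in set 1 alone (48 lower) and without αENaC 3 (2 lower). Leaving out single arrays gave 0 to 2 member calls, 12 to 237 calls over all probe sets, medians of −0.0987 to −0.0264 (large) and −0.112 to −0.0290 (small), and 1 to 9 pairs at least 0.2 apart. Calls over all probe sets were 39 with median centring, 46 with no normalisation, 4126 with array weights, 783 with set as a fixed block, 617 as a random block, 20 in sets 1 and 2, and 3309 in set 1. With the replicate block there were 0 calls over all probe sets (1127 at an unadjusted p under 0.05) and 0 among members, with medians of −0.05 and −0.06. With near-identical arrays averaged there were also 0 calls over all probe sets (219 unadjusted), and the medians were −0.024 (large) and −0.032 (small). The lowest adjusted p of a member was 0.998 in that fit and 0.0663 with set as a fixed block (limma).

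The large- and small-subunit medians were −0.44 and −0.44 with median centring, −0.28 and −0.28 with no normalisation, −0.12 and −0.13 with cyclic loess, −0.14 and −0.15 with array weights, and −0.41 and −0.41 in SD units as deposited z scores. Pairs at least 0.2 apart numbered 1 with cyclic loess, 9 with array weights, 8 in set 1 and 1 with near-identical arrays averaged. Of 20 named probe sets with a positive difference, 14 were negative with median centring, 12 without normalisation, 11 with cyclic loess and 13 in set 1 alone; RPL3, RPL5, RPL10, RPL24A, RPL31A, RPL36B, RPS3, RPS21B, RPS23A, RPS31 and the shared RPL11B probe set turned under all 3 scalings. In set 1 alone TSR4 (−0.19), SYO1 (−0.23), ZUO1 (−0.19) and CAM1 (−0.13) were negative and passed. Over all settings, 1029 comparisons of named genes kept direction and side of the threshold, 106 turned sign without passing and 56 newly passed. The cause of these dependences was not tested.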
